A study of Mus musculus with 10 samples.

Results

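The genes described are the nuclear receptors of the mouse other than the circadian receptors of the REV-ERB and ROR families, a set of 41 genes chosen by name and by known function in the liver, of the 24421 genes in the deposited table. By the rule of the set, a receptor with a mean of at least 10 counts over the 10 libraries was called expressed, which held for 30 of the 41, and the other 11 were called silent. Hepatic RNA came from 10 male wild-type C57BL/6 mice, 21 weeks old by the labels and fed chow without restriction. The Chow group (n = 5) ate plain chow, and the TM5614 group (n = 5) ate chow carrying TM5614, an oral inhibitor of plasminogen activator inhibitor-1 (PAI-1), at 20 mg/kg/day for 10 days. No animal carried an engineered allele, each mouse gave 1 library, and p-values therefore measure the spread between these mice. The question was which receptors the liver transcribed and whether inhibition of PAI-1 changed their mRNA.

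Nuclear receptors are transcription factors, most of which bind DNA directly. Most are switched by a small lipid-soluble ligand such as a fatty acid, bile acid, oxysterol, steroid or thyroid hormone. Many of those that sense metabolites act as a pair with a retinoid X receptor (RXR) on repeats of a short half-site, recruiting coactivators when the ligand is bound and corepressors when it is not. In hepatocytes they govern lipid oxidation and synthesis, bile acid and drug metabolism, glucose production and hepatocyte identity. Their activity depends on ligand and protein, and the measurements here are of their mRNA.

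Total counts ranged from 6398335 to 10874955 per library, and 11092 genes, among them all 30 expressed receptors, had enough counts to be tested. Levels are given as counts scaled to the size of the library (CPM, with TMM factors) when the groups are compared, and as the deposited FPKM, which are corrected for gene length, when genes are compared. Changes are log2 fold changes of TM5614 against Chow from edgeR's quasi-likelihood test, with Benjamini-Hochberg adjustment over all genes tested and a threshold of 0.05. A pair of libraries stood apart. Chow replicate 2 had a mean correlation of 0.927 with its own group, where the other Chow libraries had 0.965 to 0.970, and TM5614 replicate 2 had 0.971, where the other TM5614 libraries had 0.982. The skeletal muscle markers summed to 1.29 to 3812 CPM in TM5614, highest in TM5614 replicate 2, and to at most 1.25 CPM in any Chow library. The 7 hepatocyte markers in the table summed to 119200 to 132300 CPM in Chow and to 102100 to 119600 CPM in TM5614. Their estimates were lower in TM5614 for 5 of the 7, with a median log2 fold change of -0.15, and 0 passed the test (1 without Chow replicate 2). The part of this difference in the receptor values was not tested.

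Promoter sequences from RefSeq (GRCm38.p6) were available for 37 of the 41 receptors, with 57 start sites. The 3 receptors whose CPM did not overlap between the groups were Rxra, Nr2f2 and Nr1i2, and the 250 bases before their start sites are shown for that reason, 5′ to 3′ on the strand of the gene, with the letters of each motif found in capitals. The motifs searched on both strands were the nuclear receptor half-site AGGTCA, the E-box CACGTG, the D-box TTATGTAA, the CRE TGACGTCA, the GC box GGGCGG and the CCAAT box.
Rxra, first start, chr2:27676951-27677200, plus strand, GC boxes in capitals: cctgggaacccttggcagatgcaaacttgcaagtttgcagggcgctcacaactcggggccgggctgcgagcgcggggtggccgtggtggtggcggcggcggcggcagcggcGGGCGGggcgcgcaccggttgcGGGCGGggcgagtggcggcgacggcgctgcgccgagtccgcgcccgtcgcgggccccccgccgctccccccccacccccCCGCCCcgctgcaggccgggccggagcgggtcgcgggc
Rxra, second start, chr2:27709042-27709291, plus strand, half-sites in capitals: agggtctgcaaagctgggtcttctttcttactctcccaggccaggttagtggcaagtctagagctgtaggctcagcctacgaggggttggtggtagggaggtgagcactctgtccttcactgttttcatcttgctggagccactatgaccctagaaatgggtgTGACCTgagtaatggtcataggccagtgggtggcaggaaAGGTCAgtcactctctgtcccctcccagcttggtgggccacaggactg
Nr2f2, chr7:70366747-70366996, minus strand, CCAAT boxes in capitals: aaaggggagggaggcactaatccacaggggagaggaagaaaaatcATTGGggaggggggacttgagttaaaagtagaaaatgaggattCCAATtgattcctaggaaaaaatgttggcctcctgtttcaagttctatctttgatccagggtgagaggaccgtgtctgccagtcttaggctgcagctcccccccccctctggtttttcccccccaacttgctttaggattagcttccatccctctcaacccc
Nr1i2, chr16:38294825-38295074, minus strand, CCAAT box in capitals: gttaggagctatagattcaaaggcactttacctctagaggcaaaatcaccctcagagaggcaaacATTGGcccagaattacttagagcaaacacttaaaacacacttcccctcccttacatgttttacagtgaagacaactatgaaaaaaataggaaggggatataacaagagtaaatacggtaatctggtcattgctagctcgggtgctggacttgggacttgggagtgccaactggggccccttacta

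Both Rxra windows lay in introns of Rxra in GENCODE M21. The window of Nr2f2 lay within an exon of B130024G19Rik on the opposite strand, and no gene was annotated in that of Nr1i2. The first Rxra window had a GC content of 81.2% and held 3 GC boxes. The second had 55.2% and held 2 half-sites, at -87 and -48 from the start. The half-site was present in 17.5% of the 57 receptor windows and in 14% of all 32851 windows of the same length, the E-box in 8.77% and 6.02%, the GC box in 45.6% and 32.7%, and the CCAAT box in 33.3% and 33.8%. The D-box and the CRE were in 0 of the 57 receptor windows, and in 0.819% and 1.55% of all windows. These matches describe letters only.

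Receptor mRNA in the liver was dominated by a few genes. On the FPKM scale the Chow mean was highest for Hnf4a at 189 ± 22.8 (SD, n = 5), followed by Nr1i3 at 140.4 ± 39.7, Rxra at 108 ± 5.41, Ppara at 74.1 ± 10.5 and Nr1h4 at 70.1 ± 8.04. These 5 genes made up 65.7% ± 3.40 (SD, n = 5) of the summed receptor FPKM in Chow mice and 65.4% ± 3.23 (SD, n = 5) in TM5614 mice. Within the 5, Hnf4a had a share of 21.5% ± 3.22 in Chow and 27.2% ± 1.38 in TM5614. Nr1i3 had 15.7% ± 3.37 and 11.3% ± 2.32, and Rxra 12.2% ± 0.401 and 10.7% ± 0.494. Ppara had 8.38% ± 1.04 and 9.32% ± 0.931, and Nr1h4 7.95% ± 1.05 and 6.90% ± 0.806. The shares of single genes were not tested. A next tier of Nr0b2, Nr1h3, Nr1i2 and Nr2f6 had Chow means of 45.8, 45.0, 37.4 and 36.6 FPKM. In all, 15 receptors had a Chow mean over 10 FPKM, 13 lay between 1 and 10, and 2 lay under 1 (Rarb and Esrrg). The order was coarse, since 26 of the 29 pairs of neighbours overlapped in their Chow values. The breaks without overlap came after Rxra, after Nr2f6 and after Rxrb. The top 10 of the Chow order and of the TM5614 order shared 9 genes.

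**Figure D1:**
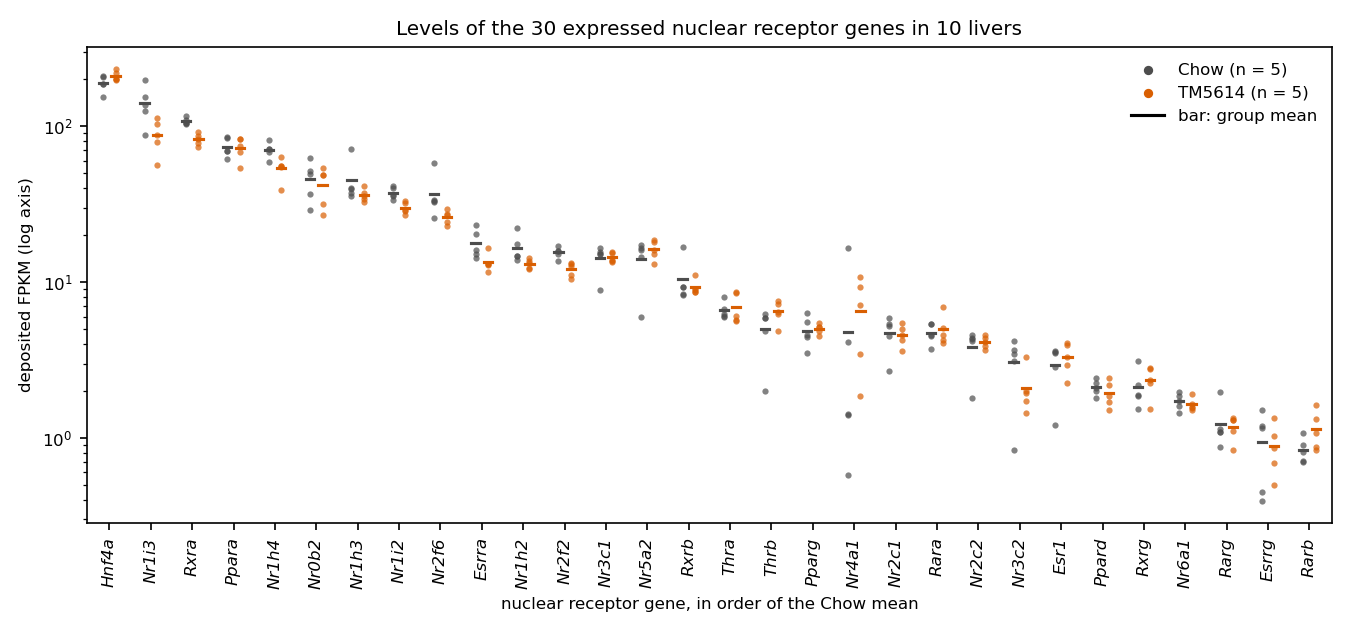
Deposited FPKM (log axis) of the 30 expressed receptors in single livers, in order of the Chow mean, with Chow mice in grey, TM5614 mice in orange and a bar at each group mean. Hnf4a stands at 189 and Rarb at 0.840 FPKM in the Chow group, and neighbours in the order mostly overlap.

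Of the 30 receptors tested, 1 passed the threshold, Rxra, which was lower in TM5614 mice. That is 3.33% of the receptors, beside 4.5% of all genes tested, so the share called was near the background. In that direction it stands beside 2.77% of all genes tested, and 0 receptors rose, beside 1.73%. The estimate was lower in 18 receptors, or 60%, beside 48.5% of all genes tested, and higher in 12, with a median log2 fold change of -0.07 beside 0.01 for all genes tested, and it was within 0.2 of 0 in 16 receptors. The largest estimate in either direction was that of Nr1i3, at -0.67. Groups did not overlap in 3 of the 30, all lower in TM5614, which is 10% beside 8.93% of all genes tested in either direction and 4.87% in that direction (4.07% were higher without overlap). That count was 5 when Chow replicate 4, Chow replicate 5 or TM5614 replicate 2 was left out, which is 16.7% of the receptors beside 10.5%, 11.9% and 12.9% of all genes tested in those cases. At an unadjusted p under 0.05 stood 8 receptors, or 26.7% beside 20.4% of all genes tested. They were Rxra, Nr2f2, Nr1i2, Nr1i3, Nr1h4, Nr2f6, Esrra and Nr1h2, each with a lower estimate in TM5614, and only Rxra held after adjustment. With DESeq2 4 receptors passed (8.11% of all genes tested), with limma-voom 4 (12.5%), with an offset for GC content and length 1 (6%), and without both libraries that stood apart 4 (11.1%). With that offset the estimates of the 8 receptors were -0.20 for Rxra, -0.06 for Nr1h2, -0.13 for Esrra, -0.17 for Nr2f6, -0.31 for Nr1i2, -0.43 for Nr2f2, -0.52 for Nr1h4 and -0.58 for Nr1i3.

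**Figure D2:**
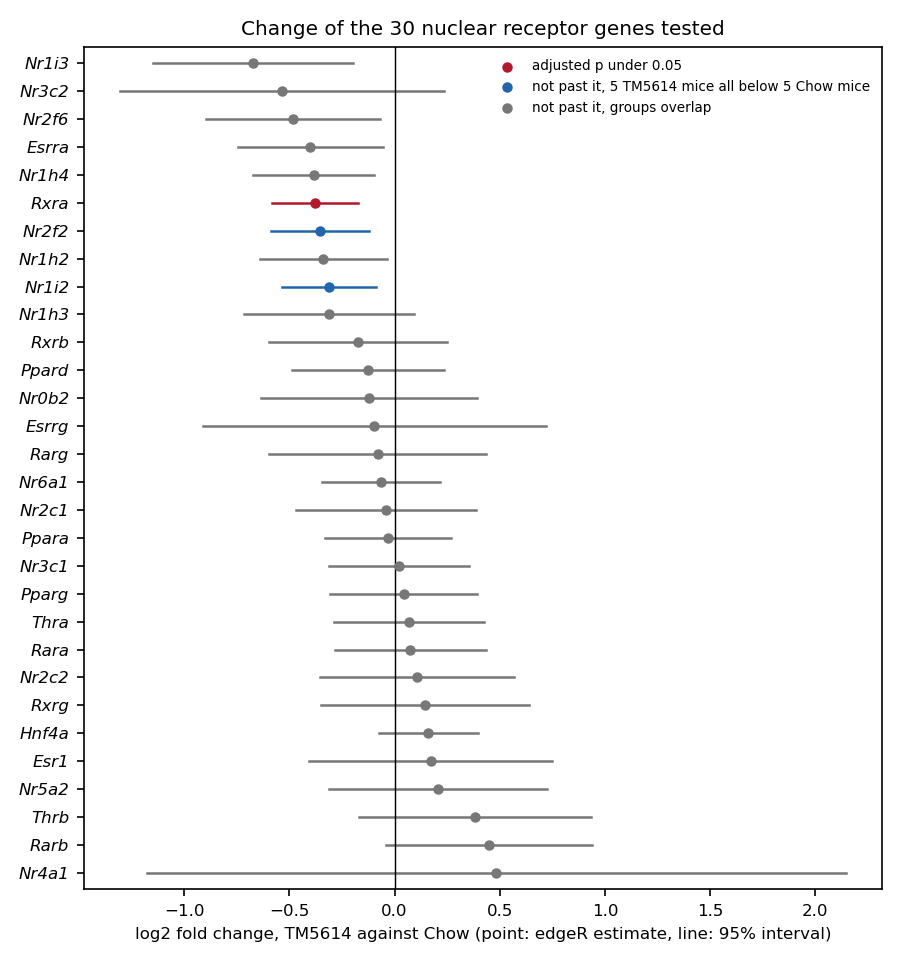
Log2 fold change of TM5614 against Chow for the 30 receptors tested, with the edgeR estimate as a point and its 95% interval as a line. Rxra (red, -0.38) is the receptor past the threshold, and Nr2f2 and Nr1i2 (blue) did not pass although the groups did not overlap.

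The retinoid X receptors are the shared partners of the metabolite-sensing receptors. Rxra, which encodes RXR-alpha, the main form in hepatocytes, had 576, 643, 601, 571 and 582 CPM in Chow replicates 1 to 5 and 478, 412, 432, 456 and 507 CPM in TM5614 replicates 1 to 5. Every TM5614 mouse lay below every Chow mouse. The level fell by 23.1%, which is -0.38 ± 0.09 (SE) on the log2 scale (edgeR's quasi-likelihood test, Benjamini-Hochberg adjusted p = 0.0417). The call was close to the threshold. It was lost with library totals as the scale (adjusted p = 0.055), without the filter on low counts (0.0795), and with an offset for GC content and length (log2 fold change -0.20, adjusted p = 0.304). It was also lost without any single library other than Chow replicate 2 (adjusted p 0.0559 to 0.127), and without Chow replicate 2 it was 0.0153. DESeq2 gave -0.38 with an adjusted p of 0.000455, and limma-voom -0.34 with 0.0093.

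Rxra lies at chr2:27676440-27762957 (plus strand) in GENCODE M21 (GRCm38). It accounted for 89.7% ± 2.46 (SD, n = 5) of the FPKM of the 3 RXR genes in Chow mice and for 87.6% ± 2.09 (SD, n = 5) in TM5614 mice. Rxrb, the ubiquitous partner, ranged from 23.2 to 47.1 CPM in Chow and from 24.0 to 31.7 CPM in TM5614, and Rxrg, better known from muscle and brain, from 3.68 to 7.43 and from 3.67 to 6.88 CPM. The log2 fold changes of these minor forms were -0.17 (SE 0.20) and 0.14 (SE 0.23), and neither passed the test (edgeR adjusted p = 0.633 and 0.740). The estimate for Rxrb turned to 0.11 with the GC and length offset.

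The xenobiotic receptors CAR (Nr1i3) and PXR (Nr1i2) switch on cytochromes and transferases that clear drugs and steroids. Nr1i3, at chr1:171213970-171220701 (plus strand), had 179.9, 282, 219, 127 and 197 CPM in the Chow mice and 148, 81.8, 113, 125 and 162 CPM in the TM5614 mice. The groups overlapped, since TM5614 replicates 1 and 5 lay above Chow replicate 4, and Chow replicate 2 was the highest of all. The estimate was -0.67 (SE 0.22, edgeR adjusted p = 0.113). On the opposite strand Tomm40l covers 74.9% of the annotated exon bases of Nr1i3, and the use of strand in counting is not stated, so reads of the pair cannot be told apart. Tomm40l itself averaged 85.8 counts beside 1476 for Nr1i3 and had a log2 fold change of 0.07.

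Nr1i2, at chr16:38248323-38294824 (minus strand), had 85.3, 106, 102, 92.1 and 92.6 CPM in the Chow mice and 74.0, 74.6, 69.4, 84.9 and 82.1 CPM in the TM5614 mice. Every TM5614 mouse lay below every Chow mouse, by a margin of under 1 CPM between TM5614 replicate 4 and Chow replicate 1. This amounted to -0.31 ± 0.10 (SE) as log2, with an edgeR adjusted p of 0.113. DESeq2 and limma-voom took Nr1i2 past the threshold (adjusted p = 0.0355 and 0.0393), and DESeq2 did so for Nr1i3 (0.0498).

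Among 20 tested target genes of these 2 receptors, 0 rose and 5 fell, beside 1.73% and 2.77% of all genes tested. The median log2 fold change was -0.38. The estimate was higher in 4 and lower in 16, and 15 did not pass. The 21 genes of the list summed to 12650 to 23190 CPM in Chow and to 15760 to 18150 CPM in TM5614, inside the Chow range. The largest falls were in Gstm3, a glutathione transferase (log2 fold change -1.93, edgeR adjusted p = 0.0122), and in Cyp2c55 and Cyp2c29, cytochromes of the Cyp2c family (log2 fold change -1.78, edgeR adjusted p = 0.0132 and log2 fold change -0.80, edgeR adjusted p = 0.0355). The Chow and TM5614 values of Cyp2c29 overlapped. With 1 library left out, 2 to 7 of the list fell, the 7 without Chow replicate 2. Gstm3 and Cyp2c55 passed whichever library was left out, and Cyp2c29 failed in 8 of the 10 cases, passing only without Chow replicate 2 or Chow replicate 4.

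**Figure D3:**
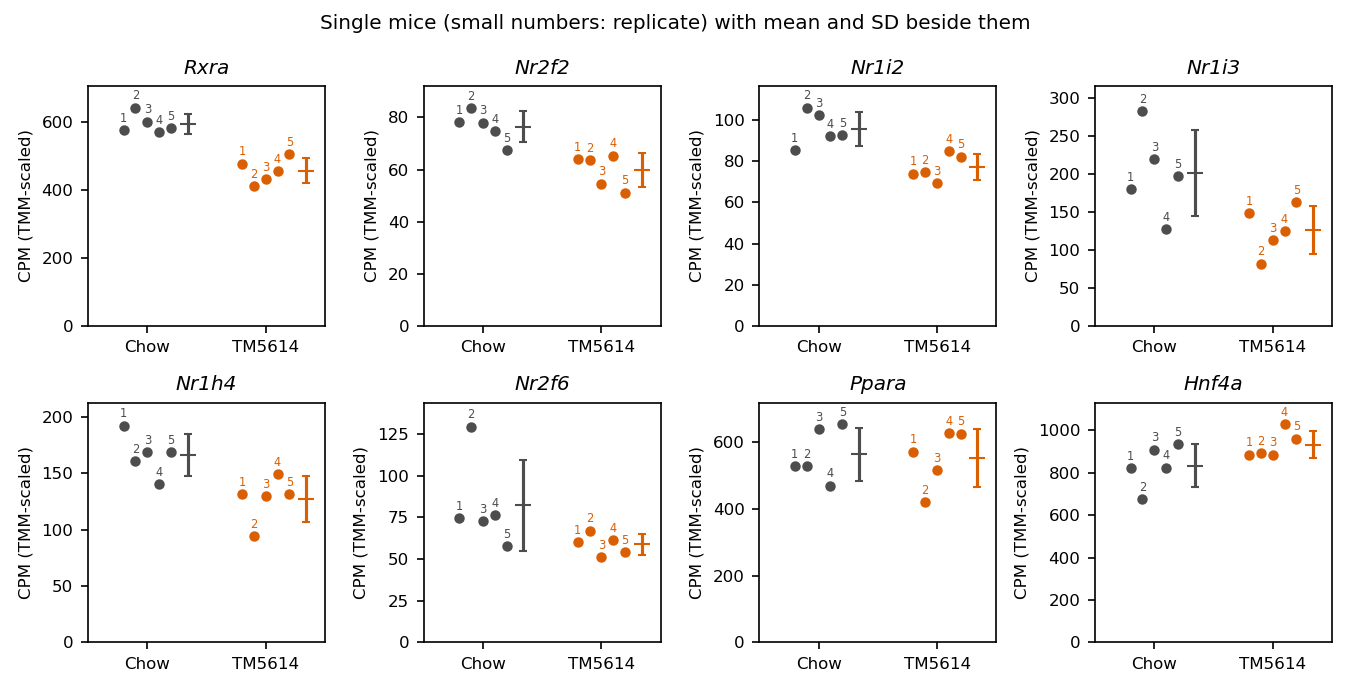
CPM of 8 receptors in single mice (small numbers give the replicate), with the mean and SD (n = 5) beside each group and axes starting at 0. In the panels of Rxra, Nr2f2 and Nr1i2 all TM5614 mice lie below all Chow mice, while the groups overlap in the other 5 panels, and Ppara and Hnf4a sit near the same level in both groups.

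Nr1h4 encodes FXR, the bile acid receptor that restrains bile acid synthesis. Its levels were 192, 161, 168, 140.1 and 169 CPM in the Chow mice and 131, 94.1, 129.6, 149 and 131 CPM in the TM5614 mice. TM5614 replicate 2 was the lowest, and TM5614 replicate 4 lay above the lowest Chow mouse, so the groups overlapped. The change was -0.38 ± 0.13 (SE) on the log2 scale (edgeR adjusted p = 0.132). Limma-voom and the GC and length offset took it past the threshold, at -0.35 (adjusted p = 0.0472) and -0.52 (adjusted p = 0.0437). Of 10 FXR targets tested, 1 rose, Abcb4, the phospholipid exporter of the bile canaliculus (log2 fold change 0.91, edgeR adjusted p = 0.00851), and 0 fell, with a median of 0.07. Abcb4 passed whichever library was left out. Without Chow replicate 2, 1 of the list rose and 1 fell. The list was not split into genes that FXR raises and genes that it restrains. Its median and counts therefore give no direction for FXR activity.

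Nr0b2 encodes SHP, a receptor without a DNA-binding domain that acts as a corepressor and is induced by FXR. It had 32.5, 70.7, 58.1, 56.1 and 41.4 CPM in Chow and 55.0, 55.8, 30.5, 60.8 and 36.0 CPM in TM5614. The groups overlapped over most of their range, and the estimate on the log2 scale was -0.12 ± 0.24 (SE), with an adjusted p of 0.793 from edgeR. Its relative Nr0b1 (DAX-1), a corepressor of steroidogenic tissue, had 0 counts in all 10 libraries.

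The oxysterol receptors LXR-alpha (Nr1h3) and LXR-beta (Nr1h2) raise cholesterol efflux and fatty acid synthesis. Nr1h3 had 73.1, 148, 81.3, 83.5 and 77.3 CPM in Chow and 85.0, 78.2, 67.2, 69.9 and 73.4 CPM in TM5614. Chow replicate 2 stood far above the other 9 libraries, which were close together. On the log2 scale the estimate was -0.31 ± 0.19 (SE) (edgeR adjusted p = 0.364) and moved to -0.08 without Chow replicate 2. Nr1h2 ranged from 28.5 to 45.6 CPM in Chow and from 25.2 to 29.1 CPM in TM5614, with -0.34 (SE 0.14, adjusted p = 0.20). The estimate of Nr1h2 became -0.22 without Chow replicate 2 and -0.06 with the GC and length offset (edgeR adjusted p = 0.176 and 0.804). Of 14 LXR targets, 0 rose and 3 fell, with a median of -0.30. They were Srebf1, the transcription factor of lipogenesis (log2 fold change -1.84, edgeR adjusted p = 0.000402), Fasn, fatty acid synthase (log2 fold change -1.37, edgeR adjusted p = 0.00391), and Scd1, stearoyl-CoA desaturase (log2 fold change -1.19, edgeR adjusted p = 0.0162). Srebf1 and Fasn passed whichever library was left out, and Scd1 failed without TM5614 replicate 3 (adjusted p = 0.0561). The other 11, among them the sterol transporters, did not pass the test.

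The peroxisome proliferator-activated receptors sense fatty acids. Ppara, the hepatic regulator of fatty acid oxidation and ketogenesis, had 529, 529, 639, 470.1 and 655 CPM in the Chow mice and 572, 421, 518, 627 and 627 CPM in the TM5614 mice. The groups covered nearly the same range. The log2 fold change was -0.03 with a 95% interval from -0.33 to 0.27 (edgeR adjusted p = 0.922). The sign was positive in some alternatives (0.03 with the GC and length offset). Ppard, the widely expressed form, ranged from 5.86 to 7.88 CPM in Chow and from 4.91 to 8.05 CPM in TM5614, and Pparg, the adipogenic form, from 8.20 to 14.8 and from 10.6 to 12.8 CPM, with log2 fold changes of -0.13 (SE 0.17) and 0.04 (SE 0.16).

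Of 24 targets of PPAR-alpha tested, 12 rose and 0 fell, and 12 did not pass. In this list all 24 estimates were higher in TM5614, and the median log2 fold change was 0.68 beside 0.01 for all genes tested. The largest rises were in Pdk4, which holds back glucose oxidation (log2 fold change 3.56, edgeR adjusted p = 0.0122), Fgf21, a fasting hormone of the liver (log2 fold change 3.04, edgeR adjusted p = 0.000136), and Ehhadh, the bifunctional enzyme of peroxisomal beta-oxidation (log2 fold change 2.31, edgeR adjusted p = 0.000889). Pdk4 had 4.37, 2.31, 3.86, 2.69 and 6.44 CPM in the Chow mice and 12.6, 144, 25.5, 40.3 and 12.6 CPM in the TM5614 mice. TM5614 replicate 2, the library with the highest sum of skeletal muscle markers, was the highest. Without it the log2 fold change of Pdk4 was 2.51 (edgeR adjusted p = 0.00611). The part of muscle RNA in the other TM5614 values of Pdk4 was not tested. All 3 passed whichever library was left out. With 1 library left out, 8 to 16 targets rose. The count of rises was 16 without Chow replicate 2 and 21 without both libraries that stood apart, and no target fell in either case.

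Hnf4a, the receptor that maintains hepatocyte identity, lies at chr2:163506808-163572910 (plus strand) and was the most abundant of the set. It had 822, 676, 908, 823 and 933 CPM in Chow and 885, 892, 885, 1029 and 960.0 CPM in TM5614. Chow replicate 2 was the lowest library, and the groups overlapped. The log2 fold change was 0.16 (95% interval -0.08 to 0.40, edgeR adjusted p = 0.421), and it was 0.09 without Chow replicate 2 and 0.29 with the GC and length offset. Hnf4g, an isotype of the intestine, averaged 1.3 counts. Of 13 HNF4A targets tested, 0 rose and 1 fell, F7, coagulation factor VII (log2 fold change -0.56, edgeR adjusted p = 0.0389), with a median of -0.32. F7 failed in 8 of the 10 cases with 1 library left out, passing only without Chow replicate 1 or Chow replicate 2. Without Chow replicate 2, 2 of the list fell.

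Of the orphan receptors of the NR2 class, Nr2f6 (EAR2) was the most abundant. It had 74.5, 129, 72.8, 76.4 and 57.9 CPM in Chow and 60.2, 67.1, 51.1, 61.2 and 54.3 CPM in TM5614. Chow replicate 2 was again far above the rest, and without it the log2 fold change of Nr2f6 went from -0.48 to -0.27 (edgeR adjusted p = 0.182 and 0.131). Ocel1 on the opposite strand covers 54.4% of the exon bases of Nr2f6, at a mean of 43.3 counts beside 621. The log2 fold change of Ocel1 was -0.49 (edgeR adjusted p = 0.320). The use of strand is not stated, and the part of Ocel1 reads in the counts of Nr2f6 was not tested.

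Nr2f2, which encodes COUP-TFII, a factor of venous endothelium, stroma and hepatocytes, lies at chr7:70351944-70366735 (minus strand). It had 78.1, 83.6, 78.0, 74.8 and 67.4 CPM in Chow and 64.0, 63.7, 54.6, 65.4 and 51.1 CPM in TM5614. Every TM5614 mouse lay below every Chow mouse, and Chow replicate 5 was the lowest of its group. TM5614 mice differed from Chow mice by -0.35 ± 0.11 (SE) in log2 units (edgeR adjusted p = 0.0939), and the gene passed the threshold with DESeq2 (adjusted p = 0.0222), with limma-voom (0.0213) and without Chow replicate 2 (0.0384). In RNA of whole liver, fewer cells of a type and less RNA per cell cannot be told apart. The 9 liver endothelium markers and the 9 stellate cell markers had median log2 fold changes of 0.14 and 0.12, and 0 of either list passed. The endothelium list summed to 150.6 to 253 CPM in Chow and 160.1 to 273 CPM in TM5614, and the stellate list to 244 to 442 and to 370 to 479 CPM. All 8 Kupffer cell markers had lower estimates (median -0.35), 0 passed, and the list summed to 58.1 to 179 CPM in Chow and 63.0 to 134 CPM in TM5614.

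Nr2c1 and Nr2c2, the testicular receptors TR2 and TR4, ranged from 10.4 to 22.7 and from 13.9 to 35.2 CPM in Chow and from 14.1 to 21.2 and from 28.4 to 35.1 CPM in TM5614. Their log2 fold changes were -0.04 (SE 0.20) and 0.11 (SE 0.21). Mrps25 on the opposite strand covers 30.7% of the exon bases of Nr2c2, at a mean of 97.3 counts beside 266. Nr2f1, the COUP-TFI gene, and Nr2e3, a receptor of photoreceptors, averaged 6.3 and 0 counts.

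The glucocorticoid receptor Nr3c1 drives gluconeogenic and stress genes. It had 98.8, 56.8, 105, 97.3 and 97.9 CPM in Chow and 87.3, 90.4, 98.4, 99.9 and 86.5 CPM in TM5614. Chow replicate 2 was far below the other 9 libraries, whose values lay close together. The estimated difference was 0.02 ± 0.15 (SE) as log2 (edgeR adjusted p = 0.950), and -0.12 without Chow replicate 2. Of 18 glucocorticoid receptor targets, 2 rose and 2 fell. The rises were Cdkn1a, a cell cycle inhibitor (log2 fold change 2.46, edgeR adjusted p = 0.00238), and G6pc, the last enzyme of glucose release (log2 fold change 1.60, edgeR adjusted p = 0.00186), and the falls were Mt1, a metallothionein (log2 fold change -1.80, edgeR adjusted p = 0.0430), and Per1, a clock gene (log2 fold change -0.75, edgeR adjusted p = 0.0304). Both rises held whichever library was left out. Per1 failed in 7 of 10 such cases and Mt1 in 6. The median of the list was 0.16, and 0 to 5 fell with 1 library left out, the 5 without Chow replicate 2. In the same fit 7 of 12 clock genes that peak with Dbp fell and 2 of 4 that peak with Arntl rose, and the labels give no time of day. The part of the clock phase in the receptor values was not tested.

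The mineralocorticoid receptor Nr3c2 ranged from 3.47 to 17.2 CPM in Chow and from 6.10 to 13.7 CPM in TM5614. Its estimate of -0.53 (SE 0.35, edgeR adjusted p = 0.410) became -0.78 with an adjusted p of 0.0334 without Chow replicate 2, the lowest library, and so passed the threshold there.

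The Nr4a genes are immediate early genes that answer to cAMP, feeding state and handling within minutes, without a known ligand. Nr4a1 (NUR77) was the single expressed member and varied more between mice than any other of the 30, with 3.52, 1.45, 3.55, 41.7 and 10.3 CPM in Chow and 8.62, 18.3, 26.9, 23.2 and 4.62 CPM in TM5614. Chow replicate 4 alone exceeded every TM5614 mouse, while the other 4 Chow mice reached at most 10.3 CPM. The log2 fold change was 0.48 with a 95% interval from -1.18 to 2.14 (edgeR adjusted p = 0.740), and it lay between 0.20 (without Chow replicate 2, adjusted p = 0.894) and 1.78 (without Chow replicate 4, adjusted p = 0.146) with 1 library left out. Leaving out Chow replicate 1 or 3 gave 0.24, TM5614 replicate 3 gave 0.22 and TM5614 replicate 4 gave 0.32. Of 12 other immediate early genes tested, 0 passed, and their median was -0.18. Nr4a2 and Nr4a3 averaged 5.4 and 2.6 counts.

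Nr5a2 encodes LRH-1, which sustains bile acid synthesis genes in hepatocytes. It had 64.0, 23.3, 56.7, 62.7 and 68.2 CPM in Chow and 70.8, 51.6, 72.4, 59.1 and 62.9 CPM in TM5614. Chow replicate 2 was again far below the other 9 libraries. The change was 0.21 ± 0.24 (SE) on the log2 scale (edgeR adjusted p = 0.644), and 0.004 without Chow replicate 2. Nr6a1, the germ cell nuclear factor, ranged from 9.29 to 12.5 CPM in Chow and from 9.63 to 12.2 CPM in TM5614, with -0.06 (SE 0.13).

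The 3 retinoic acid receptors, which bind the active form of vitamin A, had Chow means of 4.71 FPKM (Rara), 1.23 FPKM (Rarg) and 0.840 FPKM (Rarb). Rara, the main form, had 19.0, 22.5, 22.5, 15.5 and 19.0 CPM in Chow and 28.9, 19.5, 17.7, 21.3 and 17.0 CPM in TM5614. The groups overlapped, and the estimate on the log2 scale was 0.07 ± 0.16 (SE), with an adjusted p of 0.821 from edgeR. Rarb, itself a target of retinoic acid, ranged from 2.67 to 4.12 CPM in Chow and from 3.24 to 6.17 CPM in TM5614. Its estimate of 0.45 (SE 0.22, adjusted p = 0.285) did not pass. Top2b on the opposite strand covers 34.1% of the exon bases of Rarb, at a mean of 519 counts beside 32.4. The log2 fold change of Top2b was 0.195. The use of strand is not stated, and the part of Top2b reads in the counts of Rarb was not tested. Rarg ranged from 3.01 to 6.75 and from 2.86 to 4.59 CPM, with -0.08 (SE 0.24). Of 11 genes of retinoid metabolism and response, 0 passed, with a median of 0.03, and 1 rose without Chow replicate 2.

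Thyroid hormone receptors set hepatic lipogenesis and cholesterol turnover. Thrb, known as the main hepatic form, ranged from 13.3 to 41.5 CPM in Chow and from 32.6 to 50.1 CPM in TM5614, with an estimate of 0.38 ± 0.25 (SE, edgeR adjusted p = 0.413) that was 0.17 without Chow replicate 2. Thra, the more abundant of the pair per length by the Chow means, had 15.3, 18.1, 13.7, 14.3 and 13.6 CPM in Chow and 19.4, 20.0, 13.0, 12.8 and 13.8 CPM in TM5614, and 0.07 (SE 0.16). Nr1d1 on the opposite strand covers 5.7% of the exon bases of Thra, at a mean of 1022 counts beside 133. Of 5 thyroid hormone targets tested, 1 fell, Thrsp, a lipogenic protein (log2 fold change -2.55, edgeR adjusted p = 0.000720), and 0 rose. Thrsp passed whichever library was left out.

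Of the steroid and steroid-like receptors, Esrra (ERR-alpha), a partner of PGC-1 in mitochondrial gene expression, was the most abundant in its group. It had 32.1, 52.8, 36.1, 46.1 and 34.6 CPM in Chow and 29.7, 38.4, 29.0, 26.3 and 29.5 CPM in TM5614. The groups overlapped, and TM5614 replicate 2 stood above the rest of its group. On the log2 scale the estimate was -0.40 ± 0.16 (SE) (edgeR adjusted p = 0.186), with an adjusted p of 0.0492 when both libraries that stood apart were left out and an estimate of -0.13 (adjusted p = 0.538) with the GC and length offset. Esrrg ranged from 2.22 to 8.56 and from 2.85 to 7.54 CPM, with -0.10 (SE 0.38), and Esrrb averaged 6.0 counts.

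Esr1, the estrogen receptor of hepatocytes, had 25.1, 10.8, 31.4, 31.1 and 32.1 CPM in Chow and 29.1, 26.6, 36.1, 19.9 and 34.8 CPM in TM5614. Chow replicate 2 was the lowest library, and the estimate on the log2 scale was 0.17 ± 0.26 (SE), with an adjusted p of 0.736 from edgeR. Esr2 and the progesterone receptor Pgr averaged 0.3 and 0.1 counts, and the vitamin D receptor Vdr 0.5. Of 10 enzymes that make or clear receptor ligands, 1 rose, Srd5a1, a steroid 5-alpha-reductase (log2 fold change 0.47, edgeR adjusted p = 0.0299), and 2 fell, Akr1c6, a hydroxysteroid dehydrogenase (log2 fold change -0.68, edgeR adjusted p = 0.00209), and Cyp2r1, a vitamin D 25-hydroxylase (log2 fold change -0.57, edgeR adjusted p = 0.0225). Of 21 coregulators, 0 rose and 1 fell, beside 1.73% and 2.77% of all genes tested. The coregulator that fell was Ppargc1b, which encodes the coactivator PGC-1-beta (log2 fold change -0.83, edgeR adjusted p = 0.0417), and the median of the list was -0.02. With 1 library left out, Akr1c6 passed in all 10 cases, while Srd5a1 failed in 7, Ppargc1b in 7 and Cyp2r1 in 5. Without Chow replicate 2, 1 of the ligand enzymes rose and 3 fell, and 2 coregulators fell.

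**Figure D4:**
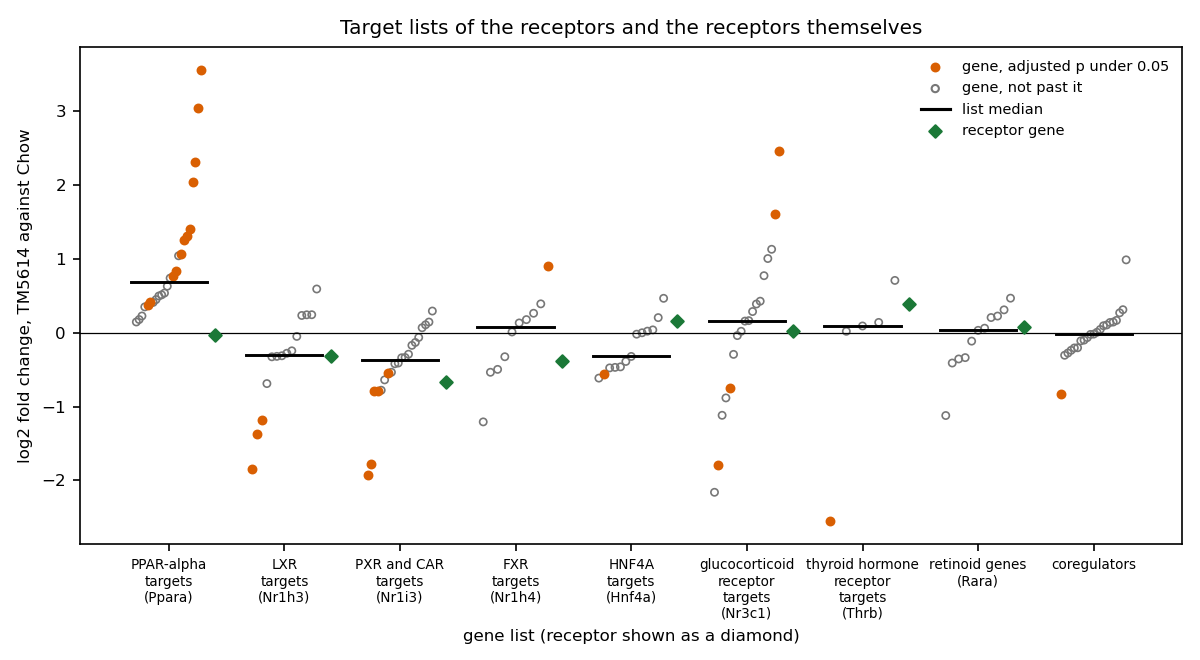
Log2 fold change of TM5614 against Chow for the genes of 9 lists, with genes past the threshold filled in orange, the list median as a black line and the receptor gene named under the list as a green diamond. The PPAR-alpha targets have a median of 0.68 with Ppara itself at -0.03, and the PXR and CAR targets have a median of -0.38 with Nr1i3 at -0.67.

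The mean count that divides expressed from silent receptors fell in a gap. The lowest expressed receptors were Rarb and Rarg with means of 32.4 and 36.6 counts, and the highest silent ones were Nr2f1 and Esrrb with 6.3 and 6.0. Among the silent receptors Nr5a1 (SF-1), the master regulator of steroidogenic cells, had 35 counts (3.22 CPM) in Chow replicate 5 and 0 in the other 9 libraries. In the same library a list of 14 genes of the adrenal cortex and medulla, drawn up after this was seen, took 0.0323% of the counts (95% Wilson interval 0.0313 to 0.0334, counting error only). Each of the other libraries gave the list at most 0.000543%. Without Chow replicate 5 the fold change of Rxra was -0.39 (edgeR adjusted p = 0.0712).

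The spread of the receptors within the Chow group rested largely on 1 library. Of the 30 expressed receptors, Chow replicate 2 was the highest Chow mouse in 13 and the lowest in 11, where over all genes tested it was highest in 38.5% and lowest in 39.2%. The median coefficient of variation of the receptors was 24.2% in Chow mice, 11.6% in Chow mice without replicate 2, and 15.4% in TM5614 mice. Over all genes tested the medians were 23.9% in Chow mice and 13.4% in TM5614 mice, close to those of the receptors. As a description, the deviation of replicate 2 from the rest of its group had a Spearman correlation of -0.63 with gene length and 0.68 with the GC content of the transcripts over the 30 receptors, whose points share that 1 library. The short GC-rich Nr2f6, Rxrb and Nr1h3 were high in it and the long Nr2c2, Esr1 and Thrb were low. Without it, 3 of the receptors passed the threshold, Rxra, Nr2f2 and Nr3c2, beside 9.24% of all genes tested.

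**Figure D5:**
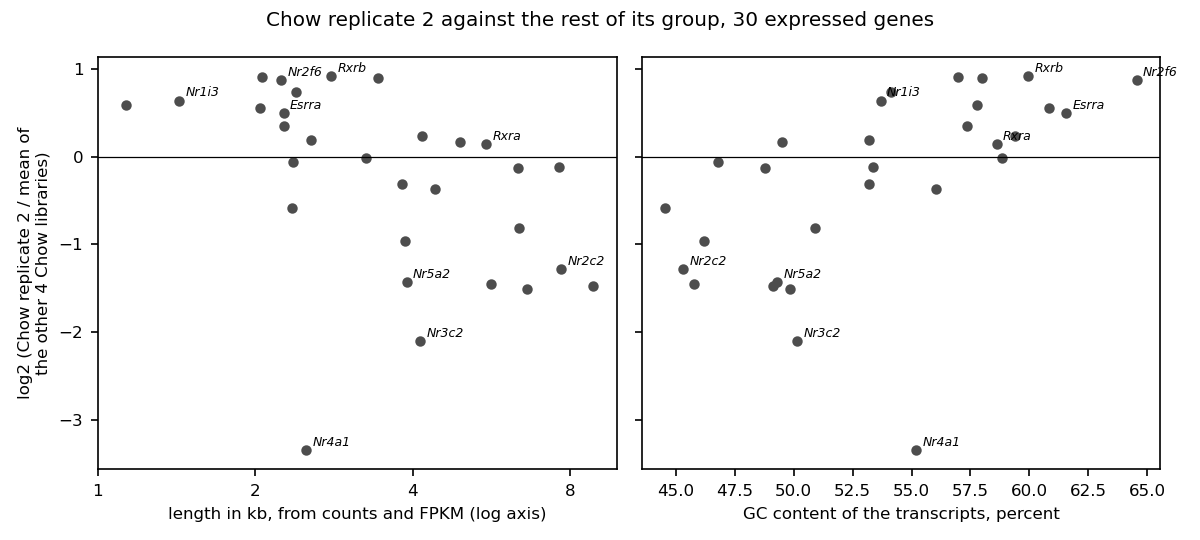
Log2 ratio of Chow replicate 2 to the mean of the other 4 Chow libraries for the 30 expressed receptors, against gene length in kb (left, log axis) and GC content of the transcripts in percent (right). The Spearman correlations are -0.63 and 0.68, and Nr4a1, whose mean over the other libraries includes 41.7 CPM in Chow replicate 4, lies lowest.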

How the data were processed

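RNA of 10 livers was sequenced, 5 per group, with groups and replicate numbers as titled in the labels. The authors made poly(A) libraries, read them from 1 end, mapped the reads to mm10 with STAR and counted them per gene, according to the methods of the study. The gene annotation and the use of strand are not given in the sources used here. The authors deposited whole-number counts without normalization, and the library totals ran between 6398335 and 10874955. The authors also deposited FPKM values, whose scaling between libraries matched DESeq2 size factors (largest difference in the natural log 9.44e-16). These were used only for levels between genes and for gene length. Their table of fold changes and p-values and their regularised log values were not used. The 20 within-group pairs of libraries all differed beyond sampling noise (chi-square over degrees of freedom at least 8.00), so each was counted as its own sample.

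Genes were kept with filterByExpr by group and libraries scaled with TMM. The test was edgeR 4.0.16 (two-sided, by glmQLFit and then glmQLFTest, without a block), run in R 4.3.3. The p-values of 11092 genes were adjusted by Benjamini and Hochberg's method, and the threshold was 0.05. Alternatives used DESeq2 1.42.0, limma 3.58.1 (voom with sample quality weights), other scalings and filters, robust dispersion, the replicate number as a block, each library left out in turn, and an offset for GC content and length (spline with 5 degrees of freedom each), for which 96.7% of the tested genes had values. The fits were tested on simulated data, where edgeR recovered most changes of 1.5 on the log2 scale and almost none of 0.4. A receptor that did not pass is therefore not shown to be unchanged. Exon overlaps and coordinates came from GENCODE M21 on GRCm38, the assembly of mm10.

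The receptors and the gene lists were chosen with earlier results of these data known. Values in every library are given for receptors past the threshold and for the most abundant receptor by FPKM of each role, and Nr1i2, Nr2f2 and Nr5a1 were added after their values were seen. From a list, genes are named where the adjusted p is under 0.05, at most 3 in each direction by size. The list of adrenal genes, and leaving out Chow replicate 5 for that reason, were added after seeing the data. Lists overlap in single genes, and no list was tested as a set. Over all genes tested 1.73% rose and 2.77% fell, and the counts of the lists were not tested against these shares. Reads carry no molecular identifiers, so intervals on shares cover counting error only.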

Additional observations from a re-analysis of the deposited data

Results flagged for a closer look

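Single libraries lay far from the rest of their group in 14 of 70 groups examined (the 35 receptors with at least 10 counts in some library, 2 groups each), by Dixon's ratio above 0.71. Chance alone flags about 1 in 20 groups, or 3.5 of 70, and the receptors are not independent of each other. Of the 14, 7 were values of Chow replicate 2.

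In Chow replicate 2, Nr1h3 had 148 CPM where the other Chow mice had 73.1 to 83.5, Nr2f6 had 129 (others 57.9 to 76.4), Rxrb had 47.1 (others 23.2 to 26.3) and Rarg had 6.75 (others 3.01 to 3.88). In the same library Nr3c1 had 56.8 CPM (others 97.3 to 105), Nr5a2 had 23.3 (others 56.7 to 68.2) and Nr2c2 had 13.9 (others 32.3 to 35.2). The 4 high genes are of GC content 57.0% to 64.6% and the 3 low genes of 45.3% to 50.9%.

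Nr4a1 reached 41.7 CPM in Chow replicate 4, where the other Chow mice had 1.45 to 10.3. In Chow replicate 5, Nr5a1 had 3.22 CPM and Nr4a3 had 1.38 CPM, where the other Chow mice had 0 and 0 to 0.193. In TM5614 replicate 2, Rxrb had 31.7 CPM (others 24.0 to 25.3), Esrra had 38.4 (others 26.3 to 29.7) and Nr4a3 had 0.519 (others 0 to 0.144). In TM5614 replicate 5, Nr3c2 had 13.7 CPM (others 6.10 to 8.26). The causes of these values were not tested.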

How the results depend on the processing

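Over 21 alternatives and 30 receptors, 560 of 630 fold changes kept their direction and their side of the threshold. In 13 receptors 45 changed sign, and none of these receptors had a reported estimate above 0.174 in size. The call was lost in 13 (all of them Rxra) and gained in 12. The number of receptors past the threshold was 1 in the reported analysis, 4 with DESeq2 (Nr1i2, Nr1i3, Nr2f2 and Rxra), 4 with limma-voom (Nr1h4, Nr1i2, Nr2f2 and Rxra), 0 with library totals alone, 0 without the filter, 1 with the GC and length offset (Nr1h4), and 4 without both libraries that stood apart (Esrra, Nr2f2, Nr3c2 and Rxra). Leaving out each library in turn gave 0 to 3, with 3 only without Chow replicate 2. The fold change of Rxra then lay between -0.42 and -0.35. Over all genes the 499 calls became 900 with DESeq2, 1386 with limma-voom and 1230 without both libraries that stood apart, and 235 to 1031 with 1 library left out. That count moved by more than 1.5 times without Chow replicate 2 (1031), Chow replicate 3 (293) and TM5614 replicates 1 (331), 3 (235) and 4 (259). Receptors whose groups did not overlap numbered 1 with the GC and length offset (3.33%, beside 8.29% of all genes tested), and 3 to 5 with 1 library left out (10% to 16.7%, beside 9.48% to 12.9% of all genes tested). This count was not recomputed for limma-voom, the block and robust dispersion, which leave the CPM as they are. Expressed receptors numbered 33 at a mean of 5 counts, 30 at 20 counts and 34 at an FPKM of 0.1.

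With the replicate number as a block, 555 genes and 0 receptors passed, and 416 genes were shared with the reported calls. Rxra was at -0.38 with an edgeR adjusted p of 0.0825. The numbers were not taken to pair the mice, since nothing in the labels ties them and same-numbered libraries deviated together weakly (correlations 0.032, 0.318, 0.124, 0.032 and 0.250). Only replicate 2 correlated best with its own number.

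Signs turned as follows. With the GC and length offset, Nr0b2 was at 0.091, Nr2c2 at -0.007, Nr3c1 at -0.008, Ppara at 0.034, Ppard at 0.064, Pparg at -0.071, Rarg at 0.23 and Rxrb at 0.11. With limma-voom, Nr2c2 was at -0.062, Nr3c1 at -0.11, Pparg at -0.005, Rarg at 0.075, Rxrb at 0.001 and Esr1 at -0.021. With library totals, Nr2c1 was at 0.002 and Ppara at 0.013. Without both libraries, Nr2c2 was at -0.10, Nr3c1 at -0.105, Ppara at 0.028, Pparg at -0.056 and Rarg at 0.105. With 1 library left out, the ranges that crossed 0 were -0.26 to 0.008 for Nr0b2, -0.20 to 0.051 for Nr2c1, -0.082 to 0.17 for Nr2c2, -0.12 to 0.078 for Nr3c1, -0.095 to 0.049 for Ppara, -0.066 to 0.14 for Pparg, -0.067 to 0.14 for Rara, -0.18 to 0.15 for Rarg, -0.26 to 0.061 for Rxrb, -0.037 to 0.14 for Thra, -0.035 to 0.28 for Esr1 and -0.31 to 0.14 for Esrrg. The causes were not tested. Counts limit the 11 silent receptors, which have no test.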

Other observations

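In Chow replicate 5, the only library with counts of Nr5a1, 13 of 14 genes of the adrenal gland were at their highest, 12 of them at more than 10 times the highest count of any other library. Star, which carries cholesterol into mitochondria, had 1082 counts there and 8 to 19 in the other 9 libraries. The steroidogenic enzymes Hsd3b1, Cyp11b1, Cyp21a1 and Cyp11a1 had 482, 443, 328 and 261 counts and at most 2, 4, 8 and 3 elsewhere. The catecholamine genes Slc6a2, Dbh and Th had 274, 167 and 54 counts and at most 8, 3 and 1 elsewhere. Pnmt was at 0 in all libraries, and so was Nr0b1, a receptor that the adrenal cortex also expresses. Of the 14 genes, 1 had enough counts to be tested.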
